A study of Mus musculus with 12 samples.

Results

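The chemokines that call monocytes and neutrophils into tissue were examined in 12 RNA-seq libraries of L929 cells, a mouse fibroblast line. The 9 genes Ccl2, Ccl7, Ccl8, Ccl20, Cxcl1, Cxcl2, Cxcl5, Cxcl12 and Cx3cl1 were chosen by name, after earlier results on these libraries were known, and found by gene identifier among 17571 genes. Of the 9 genes, 8 were found, the level of Cxcl12 was not analysed here, and 5 (Ccl2, Ccl7, Cxcl1, Cxcl2 and Cx3cl1) passed the filter on low values of at least 1 FPKM in at least 3 libraries, as did 10412 genes in all. FPKM, fragments scaled by transcript length and by the mapped fragments of the library, is a level per transcript length, so levels of different genes within a library are set side by side on it. Because the choice of genes rested on their levels against mock cells, differences from mock are given as a description with no test. For these genes only the 3 comparisons among the groups other than mock are given with p-values, and limma's calls against mock are given as a count. Levels in those 3 groups were also known when the genes were chosen, so these p-values are no independent test.

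The 4 labelled groups held 3 libraries each. Every group had a pretreatment of 1 h, with the vehicle DMSO in the mock and pEGFP-N1 groups and with 0.5 uM BX795 in the other two. The pEGFP-N1 and BX795 plus pEGFP-N1 groups were then given pEGFP-N1, an expression plasmid for the green fluorescent protein EGFP, by transfection for 6 h, and the mock and BX795 groups received no plasmid. BX795 is a small-molecule inhibitor of TBK1, the kinase that activates interferon-inducing transcription factors after cytosolic DNA is sensed, and it also inhibits other kinases. The sources used here do not state whether mock cells and cells given BX795 alone also received the transfection reagent, nor whether the 3 numbered libraries of a group came from separate cultures. The p-values therefore measure the spread between these libraries, which may be technical. L929 is a single established line, so the 4 groups represent the response of 1 cell line in culture.

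Chemokines are small secreted proteins that bind G protein-coupled receptors on leukocytes. The CC chemokines Ccl2 and Ccl7 attract monocytes through the receptors Ccr2, Ccr1 and others, and Ccl8 is a further CC chemokine. Ccl20 attracts cells that carry Ccr6, and the CXC chemokines Cxcl1, Cxcl2 and Cxcl5 attract neutrophils through Cxcr2. Cx3cl1 is made as a membrane-bound protein that is shed by the proteases Adam10 and Adam17 and binds Cx3cr1, while Cxcl12 is a mostly homeostatic ligand of Cxcr4. Fibroblasts are a well-known source of Ccl2 and Cxcl1, whose transcription is driven in many cells by the NF-kappaB factors. Cxcl9, Cxcl10, Cxcl11 and Ccl5, in contrast, are chemokines for T cells and related lymphocytes whose induction depends strongly on interferon signalling or interferon-regulatory factors.

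Some libraries stood apart from their labelled group, over 10335 tested genes outside the gene lists used here. The library labelled pEGFP-N1 replicate 2 was nearest to BX795 replicates 2 and 3, at root mean square log2 differences of 0.142 and 0.149. The library labelled BX795 plus pEGFP-N1 replicate 1 was nearest to pEGFP-N1 replicates 3 and 1, at 0.139 and 0.141. The library labelled BX795 replicate 1 was nearest to BX795 plus pEGFP-N1 replicate 2, at 0.130, and BX795 plus pEGFP-N1 replicate 3 was far from every library, with a nearest distance of 0.293. The median of 7 tested interferon-stimulated genes lay between 4.48 and 4.59 above mock on the log2(FPKM + 1) scale in pEGFP-N1 replicates 1 and 3 and BX795 plus pEGFP-N1 replicate 1, and between -0.27 and 0.04 in the other 6 libraries given plasmid or BX795. Whether these libraries carry the right labels is not known, and the labels were kept, so each group mean, fold and difference below holds for the groups as labelled. Results between groups are therefore also given without the first 2 of these libraries, and without 3 (BX795 replicate 1 as well).

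The fibroblast identity of the cells was checked by markers. Of 7 fibroblast markers found in the table, 6 reached 1 FPKM, with a summed level of 5566 to 7192 FPKM over the 12 libraries. Most of that sum was Vim (1576 to 2101 FPKM) and S100a4 (3821 to 4977 FPKM), which other cells also express, while the collagen gene Col1a1 was at 48.1 to 78.4 FPKM and Thy1, a surface marker of many fibroblasts, reached only 0.13 FPKM. Of 6 macrophage markers, Cd68, a lysosomal protein also made outside macrophages, was at 111 to 138 FPKM in every library, above Col1a1, and Lyz2 reached 0.71 FPKM. The defining leukocyte marker Ptprc stayed at or below 0.07 FPKM, as did Adgre1, Csf1r and Itgam, and the summed level of the 4 neutrophil markers found was at most 0.66 FPKM. Markers of endothelial and epithelial cells summed to at most 0.16 and 0.09 FPKM.

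The genes lie in clusters of the mouse genome (GRCm38, GENCODE annotation). Ccl2 spans 82035571 to 82037453, Ccl7 82045712 to 82047525 and Ccl8 82115185 to 82116799 on the forward strand of chromosome 11. Cxcl5 (90759360 to 90761624), Cxcl1 (90891241 to 90893115) and Cxcl2 (90903871 to 90905938) lie on the forward strand of chromosome 5. Ccl20 is on chromosome 1 (83116766 to 83119167) and Cx3cl1 on chromosome 8 (94772009 to 94782427). Of the 31-base stretches in Cxcl2 transcripts, 7.59% also occur in Cxcl3, so part of the estimated Cxcl2 level can depend on how reads were split. The estimated level of Cxcl3 was at most 0.53 FPKM in every library. For Ccl2, Ccl7, Cxcl1 and Cx3cl1 the share was 0%, and Cxcl10 shared 4.47% with the overlapping gene Art3.

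Promoters of the neutrophil chemokines Cxcl1 and Cxcl2, whose levels followed each other over the 12 libraries, are shown beside that of Cxcl10, the interferon-type chemokine they are compared with. RefSeq promoter sequences (GRCm38.p6) were matched for 6 of the 9 genes, and the promoters of Ccl2, Ccl7 and Cxcl5 were not analysed here. Each line gives bases -240 to -41 before the RefSeq start, 5' to 3' on the gene's strand. The windows are chr5:90891005-90891204 (forward) for Cxcl1, chr5:90903659-90903858 (forward) for Cxcl2 and chr5:92348930-92349129 (reverse) for Cxcl10. Capitals mark matches on either strand to GGG and CC separated by any 5 bases, a short form of the NF-kappaB site, and overlapping matches form 1 run.
Cxcl1: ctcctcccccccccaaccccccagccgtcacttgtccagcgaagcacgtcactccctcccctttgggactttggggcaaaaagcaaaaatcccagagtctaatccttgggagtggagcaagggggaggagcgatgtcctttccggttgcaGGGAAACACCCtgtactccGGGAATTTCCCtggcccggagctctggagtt
Cxcl2: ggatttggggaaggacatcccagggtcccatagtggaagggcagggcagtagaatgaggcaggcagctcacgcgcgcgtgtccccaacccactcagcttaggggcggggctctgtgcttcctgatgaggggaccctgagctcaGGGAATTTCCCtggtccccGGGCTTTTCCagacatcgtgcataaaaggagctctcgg
Cxcl10: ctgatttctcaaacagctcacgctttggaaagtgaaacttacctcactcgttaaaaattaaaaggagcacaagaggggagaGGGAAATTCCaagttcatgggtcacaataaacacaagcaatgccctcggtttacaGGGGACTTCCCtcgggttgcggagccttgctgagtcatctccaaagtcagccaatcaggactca
Both Cxcl1 and Cxcl2 hold the letters GGGAATTTCC, starting at base -71 in Cxcl1 and at base -97 in Cxcl2. In the full 250 bases before the start, Cxcl1 had 4 overlapping or separate matches and Cxcl2, Cxcl10 and Ccl20 had 3 each, Cxcl12 had 1, and Ccl8 and Cx3cl1 had 0. Cxcl9, another interferon-type chemokine, had 2. A match to the short form occurs in 45.8% of 32851 RefSeq promoters, so a match is common. GAAA repeated after any 2 bases, a short form of the interferon-stimulated response element, occurs in 2.98% of them, and among the 6 members matched none held it, while Cxcl10 holds GAAAGTGAAA at base -213 and Cxcl9 holds 0 matches. TGANTCA, the AP-1 site, occurs in 6.75% and was found in Cxcl10 (at base -74), in none of the 6 members and not in Cxcl9. These matches describe letters only.

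Ccl2 was the most abundant of the chemokines in every library. Its level in the mock libraries was 372, 376 and 341 FPKM. It was 908, 696 and 872 FPKM in the 3 pEGFP-N1 libraries, 946, 717 and 668 FPKM in the BX795 libraries and 895, 988 and 780 FPKM in the BX795 plus pEGFP-N1 libraries. All 9 libraries given plasmid, BX795 or both lay above all 3 mock libraries, and the 3 non-mock groups overlapped each other. The group means were 363 ± 19.2 (SD, n = 3) in mock, 826 ± 114 with pEGFP-N1, 777 ± 148 with BX795 and 888 ± 104 with both, that is 2.27, 2.14 and 2.45 times the mock mean.

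Ccl7, the neighbour of Ccl2 on chromosome 11 and a ligand of overlapping receptors, followed it. The mock libraries had 165, 155 and 160 FPKM. The pEGFP-N1 libraries had 403, 254 and 408 FPKM, the BX795 libraries 371, 272 and 261 FPKM and the BX795 plus pEGFP-N1 libraries 395, 383 and 365 FPKM. Again all 9 lay above mock, and the lowest 3 were pEGFP-N1 replicate 2 and BX795 replicates 2 and 3. The means were 2.21, 1.88 and 2.38 times the mock mean of 160 ± 5.10 FPKM (SD, n = 3). The ratio of Ccl2 to Ccl7 stayed between 2.13 and 2.74 in the 12 libraries.

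Cxcl1 differed from both in which libraries were high. Its mock libraries had 103, 108 and 104 FPKM. The pEGFP-N1 libraries contained 139, 164 and 118 FPKM, those with BX795 alone 353, 191 and 171, and those given both agents 129, 375 and 297. The lowest 3 of the 9 were pEGFP-N1 replicates 3 and 1 and BX795 plus pEGFP-N1 replicate 1, the same 3 libraries in which interferon-stimulated genes were high, and on the log2(FPKM + 1) scale they exceeded the mock mean by 0.17, 0.40 and 0.30. The highest 3 were BX795 replicate 1 and BX795 plus pEGFP-N1 replicates 2 and 3, at 1.74, 1.83 and 1.50. The group means were 1.34, 2.27 and 2.55 times the mock mean of 105 ± 2.49 FPKM (SD, n = 3).

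Cxcl2, which shares the receptor Cxcr2 with Cxcl1, had a similar order at a far lower level. Mock libraries had 4.11, 4.14 and 4.59 FPKM. The pEGFP-N1 libraries had 8.03, 15.3 and 6.71 FPKM, the BX795 libraries 29.6, 15.5 and 13.8 FPKM, and the BX795 plus pEGFP-N1 libraries 7.49, 32.2 and 28.2 FPKM. The difference from the mock mean spanned 0.55 to 2.65 on the log2(FPKM + 1) scale, the widest span of the 5 detected members. Group means were 2.34, 4.58 and 5.29 times the mock mean of 4.28 ± 0.27 FPKM (SD, n = 3). Cxcl2 gained more than Cxcl1, since the ratio of Cxcl1 to Cxcl2 was 22.6 to 26.0 in the mock libraries, 17.3 to 17.6 in pEGFP-N1 replicates 1 and 3 and BX795 plus pEGFP-N1 replicate 1, and 10.5 to 12.5 in the other 6.

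Cx3cl1, the membrane-bound chemokine, moved little. Mock libraries had 7.72, 7.20 and 7.07 FPKM, pEGFP-N1 libraries 7.81, 8.71 and 8.26 FPKM, BX795 libraries 9.44, 8.82 and 8.32 FPKM, and BX795 plus pEGFP-N1 libraries 7.84, 10.6 and 9.95 FPKM. All 9 were above the highest mock library, but pEGFP-N1 replicate 1 by only 7.81 against 7.72 FPKM. The means were 1.13, 1.21 and 1.29 times the mock mean of 7.33 ± 0.34 FPKM (SD, n = 3).

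The remaining members were at or near 0. Ccl8, of the same chromosome 11 cluster as Ccl2 and Ccl7, ranged from 0 to 0.60 FPKM, Ccl20 from 0 to 0.21 FPKM and Cxcl5 from 0 to 0.07 FPKM, with 2, 3 and 6 libraries listed at 0. None of the 3 reached the filter in any library, and no fold is given for them. Within each of the 12 libraries the order was Ccl2 above Ccl7 above Cxcl1 above Cx3cl1. Cxcl2 lay below Cx3cl1 in all 3 mock libraries and above it in 7 of the 12 libraries, among them all 3 given BX795 alone. In bulk RNA, more RNA per cell and a larger share of cells that express a gene cannot be told apart.

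**Figure D1:**
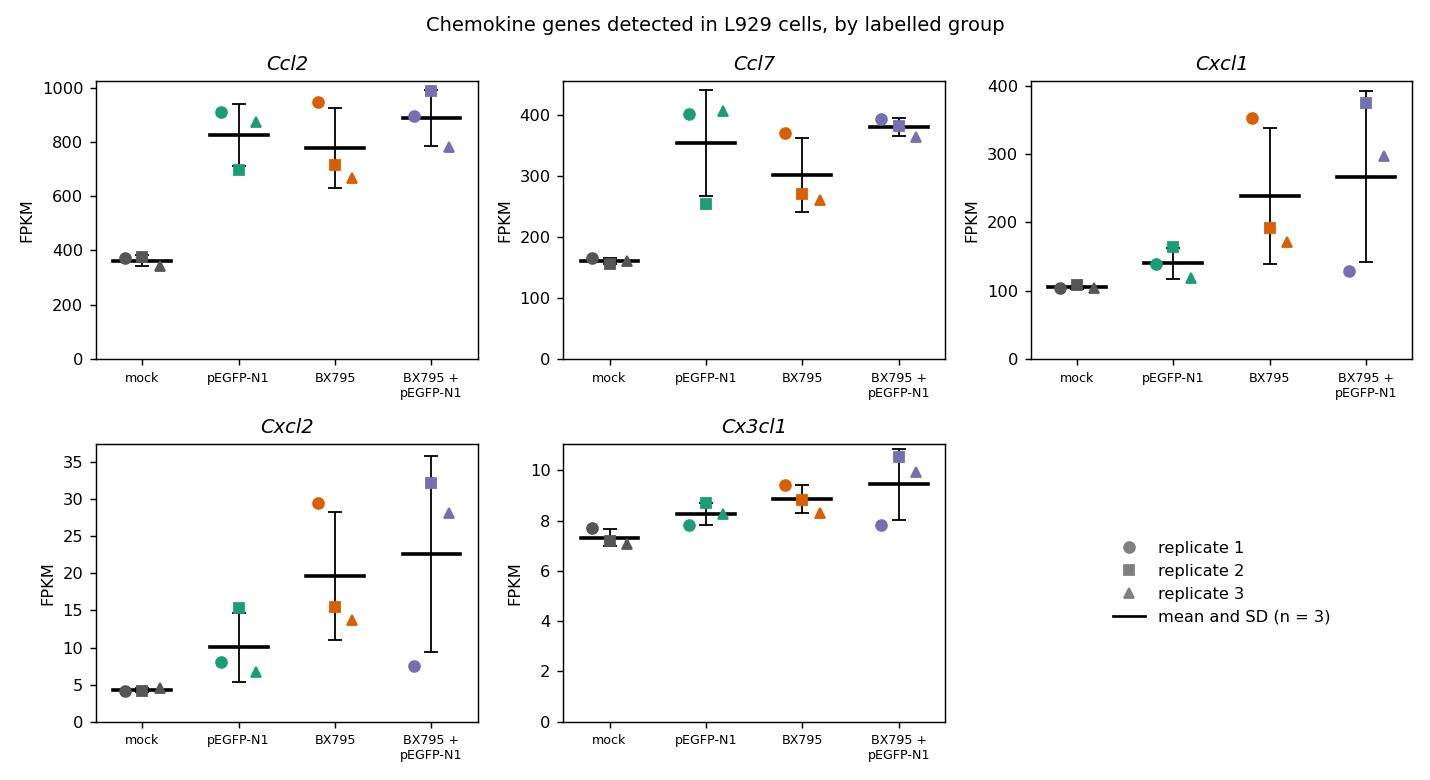
Level in FPKM (linear axes from 0) of the 5 detected chemokine genes in each of the 12 libraries by labelled group; points are libraries, with marker shapes for replicates 1 to 3, and black bars are the group mean and SD (n = 3). For each gene all 9 non-mock points lie above the 3 mock points, and for Cxcl1 and Cxcl2 the BX795 plus pEGFP-N1 group spans 129 to 375 and 7.49 to 32.2 FPKM.

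The question of which treatment the higher levels went with was described against all genes. Of the 5 detected members, 5 had all 9 non-mock libraries above all 3 mock libraries, a pattern that 1.93% of the 10412 tested genes (201) had. The members were chosen for being higher in these libraries, so nothing is read from that count. The pattern was present in each group taken alone: every library with pEGFP-N1, every library with BX795 and every library with both exceeded mock for 5 of 5 members, against 5.52%, 23.6% and 7.15% of the tested genes.

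By group, the log2(FPKM + 1) difference from mock for Ccl2 was 1.17 with pEGFP-N1, 1.08 with BX795 and 1.28 with both (SE 0.14 each). For Ccl7 it was 1.11, 0.89 and 1.24 (SE 0.17). Cxcl1 had 0.40, 1.10 and 1.21 (SE 0.34), Cxcl2 0.98, 1.89 and 1.94 (SE 0.46) and Cx3cl1 0.15, 0.24 and 0.32 (SE 0.10). The median over the 5 members was 0.98, 1.08 and 1.24, beside medians of -0.0026, 0.028 and 0.0056 over all tested genes. limma called 2 members with pEGFP-N1 (Ccl2 and Ccl7), 1 with BX795 (Ccl2) and 2 with both (Ccl2 and Ccl7), where 0.0672%, 0.0384% and 0.0576% of tested genes were called higher. The genes were chosen on these differences, so nothing is read from those counts, which ran from 0 to 2, 0 to 3 and 0 to 5 when single libraries were left out.

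**Figure D2:**
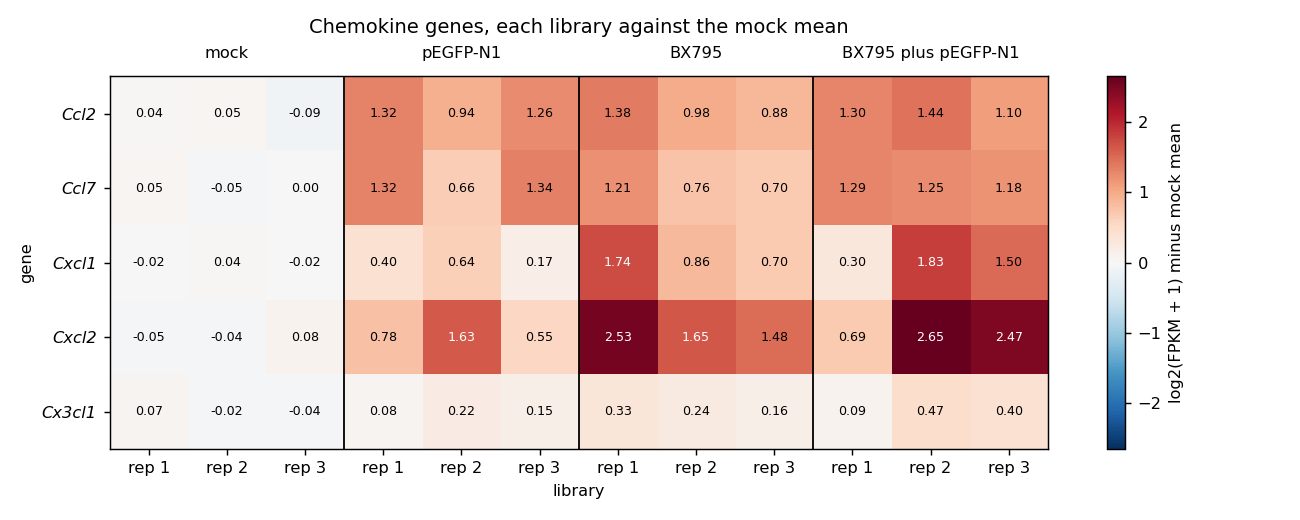
Difference of each library from the mock mean for the 5 detected chemokine genes (rows), in log2(FPKM + 1), with the 12 libraries in columns by labelled group; red is higher and each cell prints its value. Ccl2 and Ccl7 are between 0.66 and 1.44 in all 9 non-mock libraries, whereas Cxcl1 and Cxcl2 are lowest in pEGFP-N1 replicates 1 and 3 and BX795 plus pEGFP-N1 replicate 1.

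The interferon-type chemokines were set beside them library by library. In mock libraries Cxcl10 had 0.31, 0.47 and 0.42 FPKM. Its level was 133, 1.58 and 123 FPKM in the pEGFP-N1 libraries, 7.86, 0.90 and 1.85 in those given BX795 alone, and 136, 5.68 and 6.47 where both agents were given. Ccl5 was at 253 and 243 FPKM in pEGFP-N1 replicates 1 and 3 and at 260 FPKM in BX795 plus pEGFP-N1 replicate 1, and at most 1.70 FPKM in every other library. Cxcl9 stayed between 0.05 and 0.45 FPKM, and Cxcl11 was not analysed here. Of the 2 tested interferon-type chemokines, Cxcl10 had all 9 non-mock libraries above mock, although 6 of them had at most 7.86 FPKM, and Ccl5 did not. The library with the least Cxcl10 of the 9, BX795 replicate 2 at 0.90 FPKM, had 717 FPKM of Ccl2, and the library with the most, BX795 plus pEGFP-N1 replicate 1 at 136 FPKM, had 895 FPKM. BX795 replicates 2 and 3 and pEGFP-N1 replicate 2 had the least Cxcl10 of the 9, at 0.90 to 1.85 FPKM. These libraries were also the lowest of the 9 for Ccl2 (668 to 717 FPKM) and Ccl7 (254 to 272 FPKM).

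Over the 12 libraries Pearson's r of log2(FPKM + 1) was 0.97 between Ccl2 and Ccl7 and 0.97 between Cxcl1 and Cxcl2. It was 0.69 between Ccl2 and Cxcl10, 0.80 between Ccl7 and Cxcl10, -0.0078 between Cxcl1 and Cxcl10 and 0.010 between Cxcl2 and Cxcl10. Cx3cl1 correlated with Cxcl1 at 0.94 and with Cxcl2 at 0.95, in a range of levels from 7.07 to 10.6 FPKM. By rank (Spearman's rho), Ccl7 was ordered somewhat more like Cxcl10 (0.90) than like Ccl2 (0.85), rho was 0.81 between Ccl2 and Cxcl10, and Cxcl1 and Cxcl2 had 0.38 and 0.37 with Cxcl10. The libraries fell into groups, so these values describe the pattern and carry no p.

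**Figure D3:**
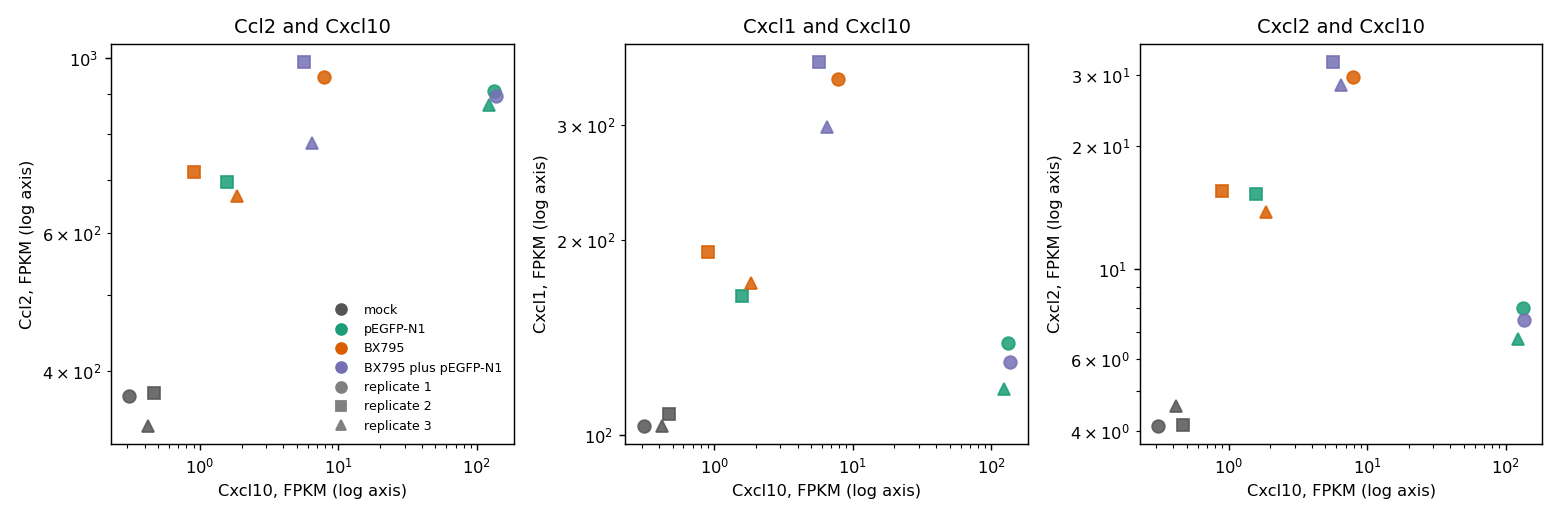
Level of Ccl2, Cxcl1 and Cxcl2 (vertical, FPKM, log axes) against Cxcl10 (horizontal, FPKM, log axis) in each of the 12 libraries, coloured by labelled group with marker shapes for replicates. The 3 libraries with Cxcl10 of 123 to 136 FPKM have Ccl2 of 872 to 908 FPKM, close to the highest, but Cxcl1 of 118 to 139 FPKM and Cxcl2 of 6.71 to 8.03 FPKM, closest to mock.

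The 3 comparisons among non-mock groups were tested. The members were chosen with their levels in these groups known, so their p-values are no independent test. Estimates of the 3 comparisons do not depend on the mock libraries, but the spread behind their intervals and limma p-values was estimated from all 4 groups, mock included. With all libraries, limma called none of the 5 members and none of the 10412 genes in any of the 3 comparisons. An unadjusted p under 0.05 was reached by 579 genes (5.56%) for BX795 plus pEGFP-N1 against BX795, 166 (1.59%) against pEGFP-N1 and 878 (8.43%) for pEGFP-N1 against BX795, and among these was 1 member, Cxcl1 in the second comparison. Without mock replicate 1 the numbers of such genes were 390, 119 and 589, and with only the 2 compared groups in the fit 722, 39 and 861. With 3 libraries against 3, the two-sided exact permutation test cannot go below p = 0.1.

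Adding plasmid to BX795 left the monocyte chemokines within the spread of the libraries. BX795 plus pEGFP-N1 minus BX795 was 0.20 for Ccl2 on the log2 scale (95% interval -0.10 to 0.50, limma adjusted p = 0.611) and 0.35 for Ccl7 (-0.02 to 0.72, adjusted p = 0.604). For the neutrophil chemokines it was 0.11 for Cxcl1 (-0.65 to 0.86, adjusted p = 0.905) and 0.05 for Cxcl2 (-0.96 to 1.06, adjusted p = 0.972). Cx3cl1 differed by 0.08 (-0.14 to 0.29, adjusted p = 0.747).

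Adding BX795 to plasmid gave the largest estimates, with wide intervals, for the neutrophil chemokines. BX795 plus pEGFP-N1 minus pEGFP-N1 was 0.81 for Cxcl1 (95% interval 0.05 to 1.56) and 0.95 for Cxcl2 (-0.06 to 1.96), beside 0.11 for Ccl2 (-0.19 to 0.41), 0.13 for Ccl7 (-0.24 to 0.50) and 0.17 for Cx3cl1 (-0.05 to 0.38). The limma adjusted p was 0.959 for each of the 5. The two-sided exact permutation p was 0.3 for Cxcl1, Cxcl2 and Cx3cl1, 0.6 for Ccl2 and 1.0 for Ccl7. Single libraries moved the estimates, to 0.50 for Cxcl1 and 0.59 for Cxcl2 without BX795 plus pEGFP-N1 replicate 2 and to 1.26 and 1.58 without BX795 plus pEGFP-N1 replicate 1, with no call in either case.

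For the neutrophil chemokines the estimate with plasmid alone was also below that with BX795 alone. pEGFP-N1 minus BX795 was -0.70 for Cxcl1 (95% interval -1.45 to 0.05, limma adjusted p = 0.480) and -0.91 for Cxcl2 (-1.92 to 0.11, adjusted p = 0.480). It was 0.09 for Ccl2 (-0.21 to 0.40, adjusted p = 0.744), 0.22 for Ccl7 (-0.15 to 0.59, adjusted p = 0.540) and -0.09 for Cx3cl1 (-0.30 to 0.12, adjusted p = 0.662). Cxcl1 was the 1 member of 5 whose groups did not overlap, 118 to 164 FPKM against 171 to 353 FPKM, and 7.87% of tested genes were lower without overlap in that comparison. Its exact permutation p was 0.1, the smallest this design can give. Without BX795 replicate 1 the difference was -0.38 for Cxcl1 and -0.58 for Cxcl2, and neither was called.

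**Figure D4:**
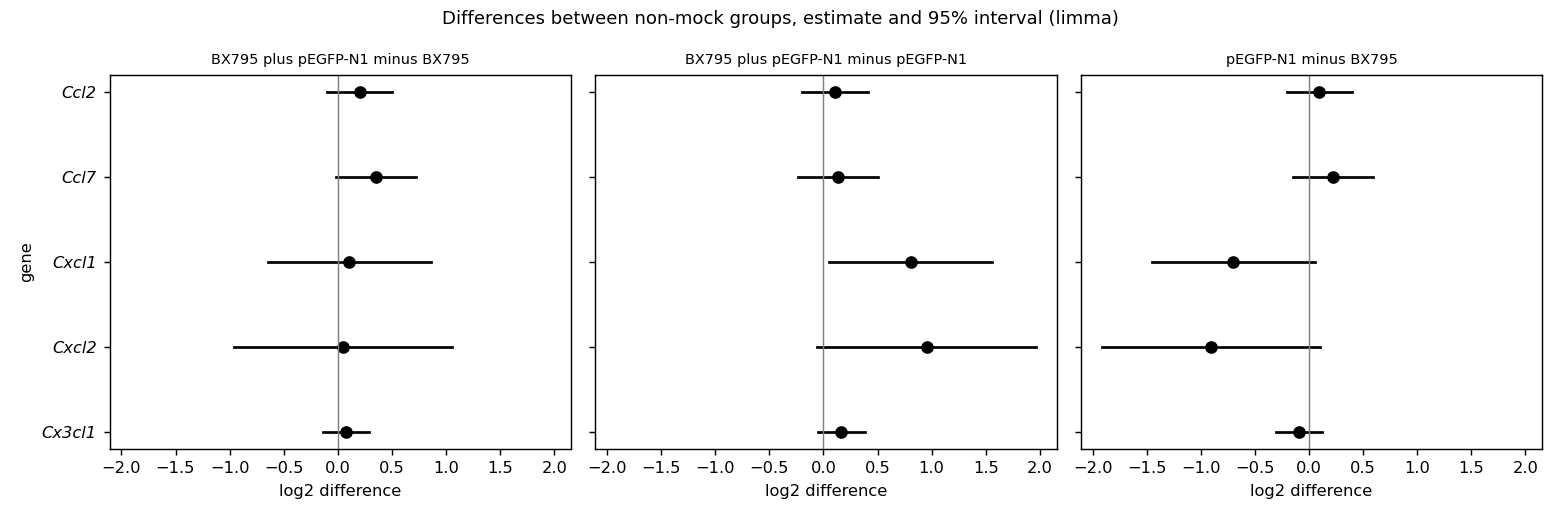
Estimated log2 difference (points) with 95% interval (lines) from limma for the 5 detected chemokine genes (rows) in the 3 comparisons among non-mock groups, with all 12 libraries; the grey line marks 0. Intervals of Ccl2 span -0.21 to 0.50 over the 3 comparisons, while those of Cxcl2 reach from -1.92 to 1.96.

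These estimates depended on the libraries that stood apart. Without pEGFP-N1 replicate 2 and BX795 plus pEGFP-N1 replicate 1, BX795 plus pEGFP-N1 minus pEGFP-N1 was 1.38 for Cxcl1, 1.90 for Cxcl2 and 0.32 for Cx3cl1. These 3 members were then called higher, as were 10.5% of tested genes, while Ccl2 (-0.02) and Ccl7 (-0.12) turned sign and were not called. In the same fit Ccl5 and Cxcl10 differed by -7.51 and -4.19, the other way from Cxcl1 and Cxcl2. pEGFP-N1 minus BX795 was then -0.82 for Cxcl1 and -1.23 for Cxcl2, both called lower as were 20.2% of tested genes, and 0.44 for Ccl7, called higher as were 12.8%. The libraries were left out because of levels seen in these data, so the calls are a description of the remaining 10 libraries and no independent test.

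BX795 plus pEGFP-N1 minus BX795 had no call without those 2 libraries, with 0.56 for Cxcl1 and 0.67 for Cxcl2. Without BX795 replicate 1 as well it was 0.88 for Cxcl1, 0.995 for Cxcl2 and 0.49 for Ccl7, all 3 called higher as were 2.77% of tested genes. Ccl2 (0.34) and Cx3cl1 (0.23) were not called there. In pEGFP-N1 minus BX795, Ccl2 (0.36) and Ccl7 (0.60) were then called higher and Cxcl1 (-0.50) and Cxcl2 (-0.90) lower, where 15.1% of tested genes were called higher and 23.6% lower. Leaving out pEGFP-N1 replicate 2 alone gave 1 called member in that comparison, Ccl7 at 0.44, where 8.34% of tested genes were called higher. With 3 libraries left out each of the 3 non-mock groups held 2. In the fits without 2 and without 3 libraries, BX795 plus pEGFP-N1 held replicates 2 and 3, and replicate 3 was far from every library (nearest distance 0.293).

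Few receptors and processing enzymes of these chemokines passed the filter. Of 11 chemokine receptors found in the table, Cxcr2, the receptor of Cxcl1 and Cxcl2, was the 1 that passed the filter, at 20.1 to 25.5 FPKM over the 12 libraries, and it was not called in any comparison. Ccr2, the receptor of Ccl2 and Ccl7, was at most 0.06 FPKM. The sheddases Adam10 (25.0 to 31.4 FPKM) and Adam17 (26.7 to 34.6 FPKM) and the protease Mmp14 (31.5 to 39.9 FPKM) were the 3 tested of 6 cleavage enzymes, with none called in the 6 comparisons. Adam10 was at 30.0 to 30.9 FPKM in mock, 25.0 to 27.8 FPKM with pEGFP-N1, 27.0 to 29.98 FPKM with BX795 and 25.4 to 31.4 FPKM with both, and its log2 difference of -0.20 with pEGFP-N1 (95% interval -0.38 to -0.02, limma adjusted p = 0.970) was the 1 of these with an unadjusted p under 0.05.

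Of 24 other chemokines listed, 17 were found and 4 passed the filter, and none of the 4 was called. The rest of those found stayed at or below 0.58 FPKM, the highest level of Ccl3. Ccl25 was at 9.03 to 11.6 FPKM, Ccl9 at 3.60 to 7.14 FPKM and Cxcl16 at 1.62 to 4.37 FPKM. Ccl4, a chemokine of macrophages and T cells, was at 6.51, 7.23 and 8.52 FPKM in pEGFP-N1 replicates 1 and 3 and BX795 plus pEGFP-N1 replicate 1 and at most 0.09 FPKM in the other libraries, the pattern of Ccl5. None of these 4 had all non-mock libraries above mock.

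The pathway that drives these chemokines in many cells was followed through a list of 23 inputs, factors and feedback genes of NF-kappaB, of which 19 were tested. limma called 1 of the 19 higher in each comparison with mock, the receptor gene Tlr2, and none lower, and none in the comparisons among non-mock groups. Of all tested genes 0.0672%, 0.0384% and 0.0576% were called higher than mock with pEGFP-N1, BX795 and both. In mock libraries Tlr2 had 6.37, 6.37 and 6.19 FPKM. Its level was 17.9, 13.6 and 17.8 FPKM in the pEGFP-N1 libraries, 22.0, 14.0 and 14.8 after BX795 alone and 19.3, 24.1 and 20.0 after both agents. Its log2 difference from mock was 1.24, 1.27 and 1.59 (SE 0.15, limma adjusted p = 0.0158, 0.0109 and 0.0037). With single libraries left out in turn, the call with both agents held in 12 of 12 fits, that with BX795 in 8 and that with pEGFP-N1 in 7, and both of the latter were lost without any one of the 3 mock libraries (highest adjusted p = 0.0907 and 0.132). The BX795 call was also lost without BX795 replicate 2, and the pEGFP-N1 call without pEGFP-N1 replicate 1 or 3. Of the 19, 8 had all 9 non-mock libraries above mock, beside 1.93% of all tested genes, and 1 (Tnfrsf1a) had all 9 below mock, beside 2.23%. An unadjusted p under 0.05 was reached by 6, 11 and 9 of the 19 in the comparisons of pEGFP-N1, BX795 and both with mock, where 4.69%, 13.8% and 8.55% of all tested genes reached it. The median difference over the list was 0.18, 0.22 and 0.25. The list was drawn up with earlier results of these data known, so these counts, shares and p-values are a description and no independent test.

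Several feedback genes of the pathway were, like Cxcl1 and Cxcl2, lowest of the 9 non-mock libraries in the 3 with high interferon-stimulated genes. The genes named here were chosen after their values were seen. Nfkbia, which encodes the inhibitor IkappaB-alpha, had 76.7, 76.2 and 81.4 FPKM in the mock libraries. It had 104, 182 and 96.2 FPKM in the pEGFP-N1 libraries, 230, 185 and 180 after BX795 alone and 103, 245 and 144 after both agents. Relb, a subunit of the non-canonical pathway, Nfkbie, another inhibitor, and Tnfaip3, the deubiquitinase A20, had the same 3 libraries lowest. In pEGFP-N1 replicates 1 and 3 and BX795 plus pEGFP-N1 replicate 1, these 3 genes stood 0.22 to 0.59 above the mock mean on the log2(FPKM + 1) scale, and in the other 6 non-mock libraries 1.13 to 1.82. Tnip1, a partner of A20, was within -0.06 and 0.05 of mock in the first 3 and at 0.67 to 0.86 in the other 6. Nfkbiz, which encodes the atypical IkappaB protein IkappaB-zeta, had the opposite order. It stood 0.46, 0.40 and 0.52 above the mock mean in those 3 libraries, at -0.34, -0.19 and -0.34 in pEGFP-N1 replicate 2 and BX795 replicates 2 and 3, and at 0.13 to 0.21 in the remaining 3. Of the most abundant members of the list, Tnfrsf1a, the type 1 TNF receptor, was at 59.9 to 60.5 FPKM in mock and 43.6 to 56.8 FPKM in the other 9 libraries, and the factor gene Rela at 45.6 to 60.3 FPKM. None of these was called in the fit of all libraries.

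**Figure D5:**
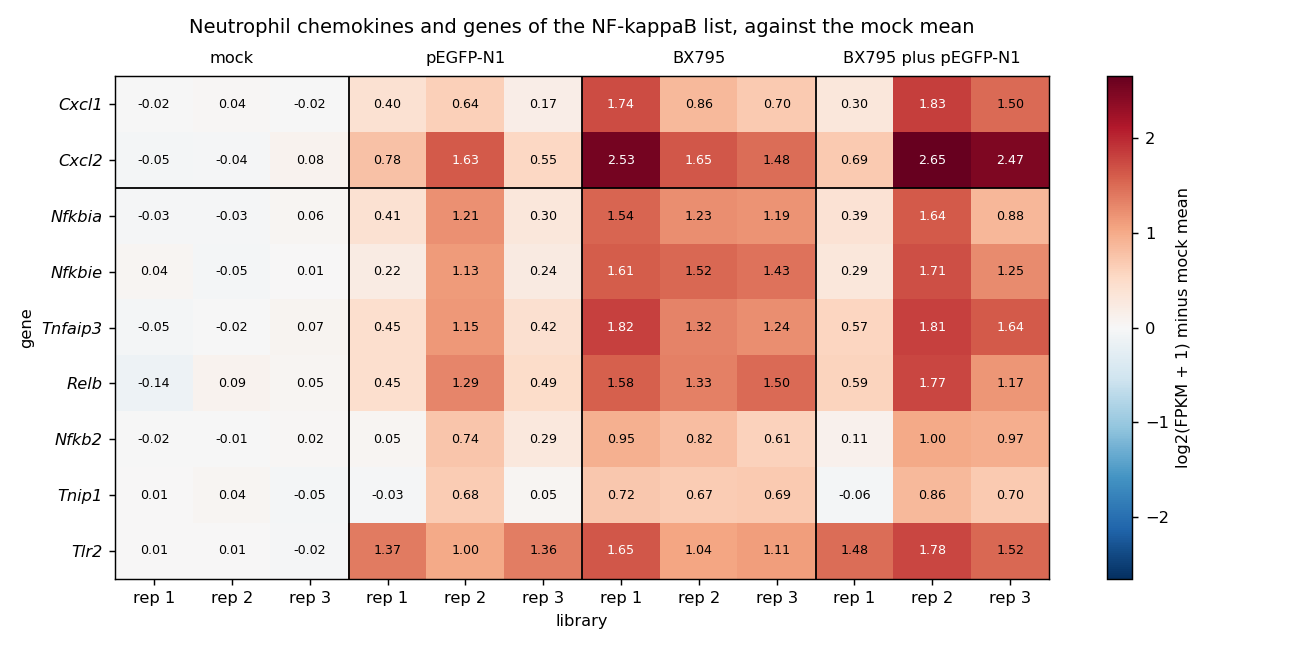
Difference of each library from the mock mean, in log2(FPKM + 1), for Cxcl1 and Cxcl2 (upper rows) and 7 genes of the NF-kappaB list (lower rows), with the 12 libraries in columns by labelled group; red is higher and each cell prints its value. Nfkbia, Nfkbie, Tnfaip3 and Relb are at most 0.59 above mock in the 3 libraries with high interferon-stimulated genes and at 0.88 or more in the other 6 non-mock libraries, whereas Tlr2 is at 0.997 or more in all 9.

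Of 13 other inflammatory products of fibroblasts listed, 8 were tested. This list too was drawn up with earlier results of these data known, so its counts and p-values are a description. The estimate was above mock for 7 of the 8 in each of the 3 comparisons with mock, with medians of 0.23, 0.57 and 0.43 for pEGFP-N1, BX795 and both, and 2, 6 and 5 of the 8 had an unadjusted p under 0.05, to be set against the 4.69%, 13.8% and 8.55% of all tested genes given above. After adjustment 1 was called, Slpi with pEGFP-N1, where 0.0672% of all tested genes were called higher. Slpi, a secreted protease inhibitor, had 8.60, 8.68 and 8.36 FPKM in the mock libraries and 21.1, 18.5 and 19.4 in those given pEGFP-N1, a log2 difference of 1.11 (SE 0.17, limma adjusted p = 0.0473). That call held in 3 of 12 fits with a single library left out, those without pEGFP-N1 replicate 2 and BX795 plus pEGFP-N1 replicates 1 and 3, while the difference stayed between 1.06 and 1.15. Slpi was at 16.0, 19.4 and 18.3 FPKM after BX795 alone and 22.1, 17.6 and 11.6 after both agents, also above mock in every library but not called. The next 3 genes were chosen after their values were seen, and none was called. Lif, a cytokine of the interleukin 6 family, had 2.14 to 2.61 FPKM in mock, 2.49 to 2.65 FPKM in the 3 libraries with high interferon-stimulated genes and 7.68 to 11.96 FPKM in the other 6. Il6, which encodes interleukin 6, had 0.41 to 0.56 FPKM in mock, and was highest in those 3 libraries, at 1.93 to 2.44 FPKM, against 0.73 to 1.74 FPKM in the other 6. C3, the complement component, was at 0.44 to 0.72 FPKM in mock, 0.59 to 0.77 FPKM in those same 3 libraries and 1.38 to 1.91 FPKM in the other 6. Csf1, the macrophage growth factor and the most abundant of the list, was at 432 to 435 FPKM in mock. It was likewise highest in those 3 libraries, at 604 to 632 FPKM, and on both sides of mock in the other 6, at 358 to 528 FPKM. Sod2, the mitochondrial superoxide dismutase, was at 41.2 to 44.0 FPKM in mock and 45.1 to 61.8 FPKM elsewhere. Lcn2 was at 24.3 to 36.0 FPKM throughout.

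Genes of the ERK and AP-1 response and of cytokine mRNA decay were also listed, since both act on chemokine transcripts. Both lists were drawn up with earlier results of these data known, so their calls and p-values are a description. Of 12 in the first list 8 were tested. Errfi1, a feedback inhibitor of the EGF receptor, was called lower with BX795, by -0.77 (SE 0.09, limma adjusted p = 0.0109), and with both agents, by -0.59 (adjusted p = 0.0433), where 0.0288% and 0.048% of tested genes were called lower. The call with BX795 held in 6 of 12 fits with a single library left out and was lost without any one mock or BX795 library. The call with both agents held in 2, those without pEGFP-N1 replicate 2 and BX795 plus pEGFP-N1 replicate 1. The differences stayed between -0.81 and -0.73 and between -0.66 and -0.52. It was at 24.5 to 27.7 FPKM in mock and 14.8 to 19.2 FPKM in the other 9 libraries. The abundant members Fosl1 (121 to 198 FPKM), Jund (28.0 to 63.3 FPKM) and Junb (18.1 to 37.4 FPKM) were not called. Of the 8 decay factors, 8 were tested and none was called in the 6 comparisons, with Khsrp at 76.6 to 90.8 FPKM, Zfp36l2 at 55.5 to 108 FPKM, Zc3h12a at 28.5 to 41.6 FPKM and Hnrnpd at 24.8 to 36.1 FPKM.

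The tested genes with the pattern most like that of 3 members over the 12 libraries were listed by Pearson's r of log2(FPKM + 1). For Ccl2 they included Tlr2 (0.98), Irf1 (0.93), Tmem106a (0.93) and Cd40 (0.93). For Ccl7 they included Egr1 (0.98), Tlr2 (0.96), Plk2 (0.94) and Ewsr1 (0.94). For Cxcl1 they were Pik3r5 (0.98), Acss2 (0.98), Sod2 (0.97), Tmod4 (0.96) and Uap1 (0.96). None of the 5 genes nearest to Cxcl1 was among those nearest to Ccl2 or Ccl7. Irf1 was at 12.7 to 14.9 FPKM in mock and 20.2 to 28.7 FPKM in the other 9 libraries, and Pik3r5 at 14.8 to 15.3 and 16.8 to 24.2 FPKM. The libraries shared by all these values differ in many genes at once, so the likeness says how levels were ordered and no more.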

How the data were processed

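RNA of 12 L929 libraries in 4 groups of 3 was sequenced by the authors, quantified with RSEM after alignment to GRCm38.p5 by Bowtie2 2.2.5, which reported at most 200 positions for a read. The deposited values are FPKM per gene, which the authors computed from these estimates. FPKM keeps no depth, so the depth per library is unknown and no counting interval was computed. Of 17571 genes, 17450 had a symbol, and no 2 libraries held identical values. Groups came from the sample titles. Members and gene lists were chosen with earlier results of these data known. The study's test works on reads and could not be used on FPKM. Here limma 3.58.1 (R 4.3.3) was fitted to log2(FPKM + 1) with 4 group means and a variance trend, over 10412 genes with at least 1 FPKM in at least 3 libraries, with Benjamini-Hochberg adjustment and a call at an adjusted p under 0.05. The pseudocount understates changes of low genes. The script was tested on simulated data. Single members were compared by a two-sided exact permutation test. Named genes were the 9 members, interferon-type chemokines, called genes of each list and the 4 of highest mean FPKM per list, and the 5 genes most correlated with Ccl2, Ccl7 and Cxcl1. Any other gene named was chosen after its values were seen. Some genes that the rules name are not reported here.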

Additional observations from a re-analysis of the deposited data

How the results depend on the processing

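Each comparison was refitted under 11 other settings, without each single library, and without the 2 and the 3 libraries that stood apart. The last was added after the data were seen. Of 720 refitted member differences, 628 kept their direction and their side of the threshold, 35 lost the call, 41 gained it and 16 changed sign. All 5 detected members had every non-mock library above every mock library under the 3 other scalings. Differences from mock chose the members, so their counts against mock below are a description.

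With pEGFP-N1 against mock (2 members and 7 genes called), 0 members and 2 genes were called with no filter on low values, 1 member without the trend or after quantile normalization, rescaling to TPM or division by the 75th percentile, and 1 member and 4 genes with only the 2 groups in the fit. For BX795 against mock (1 and 7), that fit called 5 members and 2150 genes. With both agents against mock (2 and 11), no filter called 1 member, and 6 genes were called after division by the 75th percentile and with only the 2 groups. The thresholds of the study methods (FDR of at most 0.001 and a log2 change of at least 2) called 0 members and 0 genes in each comparison. With no filter, 1, 2 and 1 genes were called for BX795 plus pEGFP-N1 against BX795, BX795 plus pEGFP-N1 against pEGFP-N1 and pEGFP-N1 against BX795, where the fit of all libraries called 0. The cause of these changes was not tested.

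Leaving out libraries, the counts of members and genes called ran from 0 to 3 and 0 to 927 for pEGFP-N1 against mock, 0 to 5 and 0 to 2471 for BX795 against mock, and 0 to 5 and 1 to 1227 for both against mock. They ran from 0 to 3 and 0 to 676 for BX795 plus pEGFP-N1 against BX795, 0 to 3 and 0 to 2502 against pEGFP-N1, and 0 to 4 and 0 to 4027 for pEGFP-N1 against BX795. The highest gene counts came without the 3 libraries. Without the 2, the gene counts were 391, 1466, 928, 0, 1886 and 3438, in the same order, and without pEGFP-N1 replicate 2 alone the last was 2235. Differences that changed sign were BX795 plus pEGFP-N1 minus BX795 for Cxcl1 (-0.20 to 0.88), Cxcl2 (-0.31 to 0.995) and Cx3cl1 (-0.0016 to 0.23), BX795 plus pEGFP-N1 minus pEGFP-N1 for Ccl2 (-0.020 to 0.20) and Ccl7 (-0.12 to 0.25), and pEGFP-N1 minus BX795 for Ccl2 (-0.0056 to 0.36).

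The labels give the groups the same replicate numbers, and whether the numbers pair the samples is not known. The mean correlation of same-numbered deviations from group means was 0.019 to 0.353 over the 6 pairs of groups, with single values from -0.389 to 0.635. The mean was above 0 in all 6 pairs of groups. That of differently numbered libraries was below 0 in all 6 (-0.205 to -0.0095), but deviations sum to 0 within a group, so this is no separate evidence. Taking the replicate number as a block raised the number of genes with an unadjusted limma p under 0.05 in each comparison. It rose most for BX795 plus pEGFP-N1 against BX795 (579 to 1123) and pEGFP-N1 against BX795 (878 to 1509). With the replicate number as a block, 5, 7 and 6 genes were called against mock, and BX795 plus pEGFP-N1 against mock was the comparison whose count moved by over 1.5 times.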
